A study of Mus musculus with 9 samples.

Results

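The prostaglandin genes examined here comprised 10 symbols: the cyclooxygenases Ptgs1 and Ptgs2, the terminal synthases Ptges, Ptgis and Ptgds, the degrading enzyme Hpgd, and the receptors Ptger2, Ptger3, Ptger4 and Ptgfr. They were chosen by symbol in the platform annotation, which assigned 20 of the 45037 non-control probe sets to 9 of them. No probe set was annotated to Ptgs1, which is therefore not analysed here. Of the 20 probe sets, 9 from 6 genes had a mean over all arrays above the low-value limit, a log2 value of 6.22 below which the lowest 40% of probe sets lay. Ptgs2 and Hpgd belong to the set because their differences between the lines had been noted in these same data, so their values are given as a description, without a test.

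Cyclooxygenases convert arachidonic acid, released from membrane phospholipids, into the unstable intermediate prostaglandin H2, which terminal synthases turn into prostaglandin E2, prostacyclin, prostaglandin D2 and related lipids. These act near their source through G protein-coupled receptors and are inactivated chiefly by 15-hydroxyprostaglandin dehydrogenase, the product of Hpgd. Fibroblasts are a known source of prostaglandin E2 and prostacyclin, and Ptgs2 is the cyclooxygenase gene that growth factors and cytokines induce in them.

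The study measured RNA from mouse embryonic fibroblasts (MEFs), primary cultures grown from embryos, on 9 expression arrays, 3 for each of a KO, a Het and a WT line. Oga encodes O-GlcNAcase, which removes O-linked N-acetylglucosamine from proteins, and the comparisons ask how its loss alters gene expression. The KO line came from an Oga knockout embryo, the Het line from an Oga heterozygous embryo and the WT line from a wild-type embryo, all female and all taken at E12.5. All 3 lines were cultured in DMEM. Per the series' design text, mice with a floxed Oga allele on a C57Bl/6 background were crossed with MMTV-Cre mice, in which a mouse mammary tumour virus promoter drives the recombinase, and the heterozygous offspring were intercrossed. Whether the embryos carried the Cre transgene is not stated in the sources here. The 3 arrays of a line were technical replicates, and the titles give each genotype 1 line code. Every p-value below therefore covers only the spread between arrays of 1 line, and genotype cannot be told apart from any other way in which the 3 embryos differed.

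The targeted gene followed the labels. The most abundant Oga probe set averaged 6.06 ± 0.0264 (SD, n = 3 arrays) in the KO line and 11.16 in each Het array, against 11.92 ± 0.0325 in the WT line. Arrays of a line correlated at r = 0.997 to 0.999, and arrays of different lines at 0.989 to 0.996. Where arrays of lines are said below not to overlap, this is a description only. The share of all genes or probe sets without overlap is not given here, so such a gap cannot be read as unusual. Fibroblast genes such as Col1a1, Col1a2, Fn1 and Vim had means from 14.60 to 15.13 in all 3 lines, but Pdgfra, a mesenchymal growth factor receptor gene, fell by 2.55 and the proteoglycan gene Lum fell by 2.42 on the log2 scale in KO against WT. Macrophage markers were also present in each line: 17 of 18 fell in KO against WT, with a median log2 difference of -1.76, and the sum of their values on the linear scale was 18680 to 19550 in KO, 50850 to 53670 in Het and 63530 to 65510 in WT arrays. Of 4 measured epithelial and mesothelial markers, Krt18 and Krt19 rose in KO against WT. The other 2, Krt8 (0.09) and Epcam (0.24), were not called in KO against WT. The summed level of all 4 was 1385 to 1457 in KO, 854.9 to 886.3 in Het and 794.9 to 812.6 in WT arrays. Of the 10 listed, 6, among them Cdh1 and Wt1, had means over all arrays under the limit. Mast cell markers had 0 of 2 measured genes called, and the defining Cpa3 and Fcer1a lay under the limit.

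Ptgs2 encodes the inducible cyclooxygenase. Its most abundant probe set read 11.27, 11.29 and 11.07 in the KO arrays and 9.91, 9.75 and 9.64 in the Het arrays, against 9.45, 9.23 and 9.30 in the WT arrays. The lines did not overlap on this probe set: every KO array lay above every Het array, and every Het array above every WT array. The KO mean was 3.68-fold above the WT mean (log2 difference 1.88) and 2.72-fold above the Het mean (1.44), while the Het mean was 1.35-fold above the WT mean (0.44). The other Ptgs2 probe set read 9.71, 9.25 and 9.27 in KO and 7.88, 7.71 and 7.75 in Het arrays, against 7.87, 7.77 and 7.74 in WT arrays. Its KO mean was higher than the WT mean by 1.62 and than the Het mean by 1.63, but its Het and WT arrays overlapped, with a Het minus WT difference of -0.01. The 2 probe sets thus differed on the Het line: 1 placed it between KO and WT, and the other beside WT. With their mean in place of the most abundant probe set, the difference was 1.75 for KO minus WT and 0.21 for Het minus WT.

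**Figure D1:**
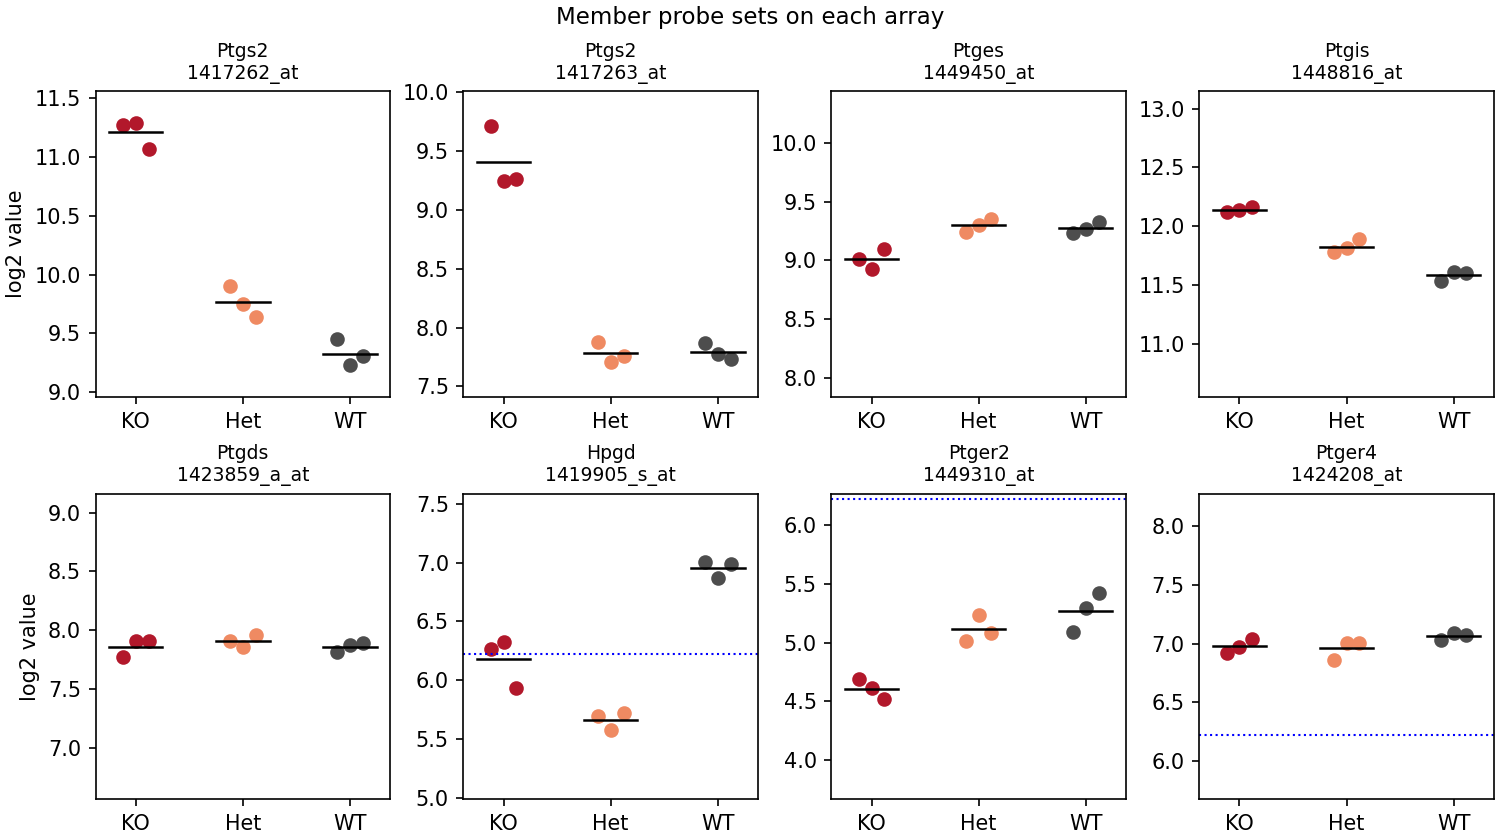
Log2 values (vertical axis, each panel spanning the same range) of both Ptgs2 probe sets and of the most abundant probe set of 6 other genes on the KO, Het and WT arrays, left to right; points are arrays, black lines are means of 3 arrays and the dotted line is the low-value limit of 6.22. Ptgs2 is highest in KO, Hpgd is lowest in Het and highest in WT, and all Ptger2 arrays lie below the limit.

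The promoters of Ptgs2 and Hpgd are shown because these genes had the largest differences between lines. Both lines of sequence hold the 250 bases before the RefSeq start of the gene in the build GRCm38.p6, on the plus strand at chr1:150099781-150100030 for Ptgs2 and at chr8:56294302-56294551 for Hpgd, and capitals mark the motifs found.
Ptgs2: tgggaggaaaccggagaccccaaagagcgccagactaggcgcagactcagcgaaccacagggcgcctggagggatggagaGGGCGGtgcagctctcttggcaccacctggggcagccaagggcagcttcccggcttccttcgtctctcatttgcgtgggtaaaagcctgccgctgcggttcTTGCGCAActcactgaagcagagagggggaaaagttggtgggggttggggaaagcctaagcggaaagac
Hpgd: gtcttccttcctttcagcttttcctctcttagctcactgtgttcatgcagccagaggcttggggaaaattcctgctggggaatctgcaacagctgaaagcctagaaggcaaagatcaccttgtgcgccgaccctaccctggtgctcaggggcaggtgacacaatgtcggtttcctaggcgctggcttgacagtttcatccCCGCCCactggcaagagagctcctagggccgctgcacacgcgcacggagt
The first 30 bases from each start follow, at chr1:150100031-150100060 and chr8:56294552-56294581, with capitals again marking motifs.
Ptgs2 start: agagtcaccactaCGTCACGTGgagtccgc
Hpgd start: gggcTATAAAagctgctgcggcgtccagac
The windows searched, on both strands, ran from 250 bases before the start to 50 after it. The core promoter motifs searched were the TATA box, spelled TATAAA, the box named for its letters CCAAT, and the GC box, spelled GGGCGG. Of the motifs bound by inducible factors, the E-box was searched as CACGTG and the AP-1 site as TGANTCA. The cAMP response element was searched as a core, CGTCA, and as the full site, TGACGTCA, which contains that core. A palindromic C/EBP site, TTGCGCAA, and the NF-kB consensus completed the set. The Ptgs2 window held a GC box, the C/EBP site at bases -69 to -62 and, at bases 14 to 22, a cAMP response core that shares bases with an E-box. Among all 32851 promoters of the table, 35.7% held a GC box, 0.183% this C/EBP site, 20.8% the core and 7.15% the E-box. The C/EBP motif was chosen with the Ptgs2 sequence known, so its share does not measure how unusual that match is. The Hpgd window held a GC box before the start and the TATA box letters at bases 5 to 10, past the start. A TATA box occurred in 13.6% of promoters, anywhere in the window. Promoters of 9 of the 10 genes were in the table, and Ptgis was the gene without an entry. Across those 9 windows, GC content ran between 37.7% in Ptger2 and 67% in Ptger4, beside a median of 52.7% over all promoters. A GC box occurred in Ptgs2, Ptges, Hpgd, Ptger3, Ptger4 and Ptgfr, and none of the 9 held the full cAMP response element. A motif match describes letters only and says nothing about binding.

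Of the 4 genes past the low-value limit other than Ptgs2 and Hpgd, namely Ptges, Ptgis, Ptgds and Ptger4, 0 passed both the adjusted p threshold of 0.05 and 2-fold in KO against WT, where 3.56% of all 12962 genes were called. By adjusted p alone 2 of the 4 passed, a threshold that 53.1% of all genes passed in this comparison. The words rose and fell are kept here for genes that passed both.

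Ptgis encodes prostacyclin synthase. Its probe set read 12.12, 12.14 and 12.16 in KO and 11.78, 11.81 and 11.89 in Het arrays, against 11.53, 11.61 and 11.60 in WT arrays. The 3 lines did not overlap, and they stood in the order KO, Het, WT. Ptgis was 1.48-fold higher in KO than in WT (log2 difference 0.56 ± 0.0415, SE; limma adjusted p = 6.73e-07) and 1.24-fold higher than in Het (0.31, limma adjusted p = 8.62e-05). In Het it was 1.19-fold higher than in WT (0.25, limma adjusted p = 0.00113). Each difference passed the adjusted p threshold and was short of 2-fold. Ptgis is also expressed by endothelial and smooth muscle cells. Among 12 markers of smooth muscle cells and pericytes, 4 rose and 0 fell in KO against WT (median 0.40), with the summed linear level at 84440 to 85980 in KO, 67970 to 68950 in Het and 59340 to 59940 in WT arrays. Their part in the Ptgis difference was not tested. Of 9 endothelial markers 6, among them Pecam1 and Cdh5, had means over all arrays below the low-value limit. One of these 6, Emcn, averaged 6.66 in KO and 5.44 in Het, against 5.67 in WT arrays. The 3 measured above it, Egfl7, Kdr and Esam, differed by 0.02 to 0.12 between KO and WT.

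Ptges encodes the inducible microsomal prostaglandin E synthase, which acts on the product of Ptgs2. Its most abundant probe set read 9.02, 8.92 and 9.10 in KO and 9.24, 9.31 and 9.36 in Het arrays, against 9.23, 9.27 and 9.33 in WT arrays. All KO arrays lay below all Het and WT arrays, which overlapped each other. The KO minus WT difference was -0.26 ± 0.0523 (SE; limma adjusted p = 0.00139), and the KO minus Het difference was -0.29 (limma adjusted p = 0.00082). The other 2 Ptges probe sets gave -0.23 and -0.22 for KO minus WT (limma adjusted p = 0.049 and 0.0365 among all probe sets). In Het the 3 probe sets lay between -0.07 and 0.20 relative to WT and 0 passed the threshold, which 21% of all probe sets passed in Het against WT. In the KO line the Ptges values thus lay lower where those of Ptgs2 lay higher.

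Ptgds, the lipocalin-type prostaglandin D synthase gene, showed no detectable difference. It averaged 7.86 ± 0.0798 in KO and 7.91 ± 0.048 in Het, against 7.86 ± 0.0384 in WT arrays (SD, n = 3 arrays each), and all 3 lines overlapped. The KO minus WT difference was 0.00039 ± 0.0485 (SE; limma adjusted p = 0.995). Its other probe set lay below the low-value limit on every array, with a KO minus WT difference of 0.15 that did not pass (limma adjusted p = 0.209 among all probe sets).

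Hpgd encodes the dehydrogenase that starts prostaglandin breakdown. One of its 2 probe sets, which by its suffix can detect several transcripts, read 6.27, 6.33 and 5.93 in KO and 5.69, 5.57 and 5.72 in Het arrays, against 7.002, 6.87 and 6.99 in WT arrays. No lines overlapped, and the Het line, not the KO line, was lowest. The Het mean was 2.45-fold below the WT mean (log2 difference -1.29), and the KO mean was 1.71-fold below it (-0.78) and 1.43-fold above the Het mean (0.51). Any relation of this order to the number of Oga copies was not tested. The KO mean of 6.18 and the Het mean of 5.66 lay under the low-value limit, and the overall mean of 6.26 was just above it. Hpgd therefore passed the limit through its WT arrays, and when any 1 WT array was left out it no longer passed. The sizes of its differences hold for the deposited values only. The second Hpgd probe set averaged 5.15 in KO and 5.22 in Het, against 5.37 in WT arrays, all under the limit. Its lines overlapped, and 4 of its 9 values were exactly equal across lines.

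**Figure D2:**
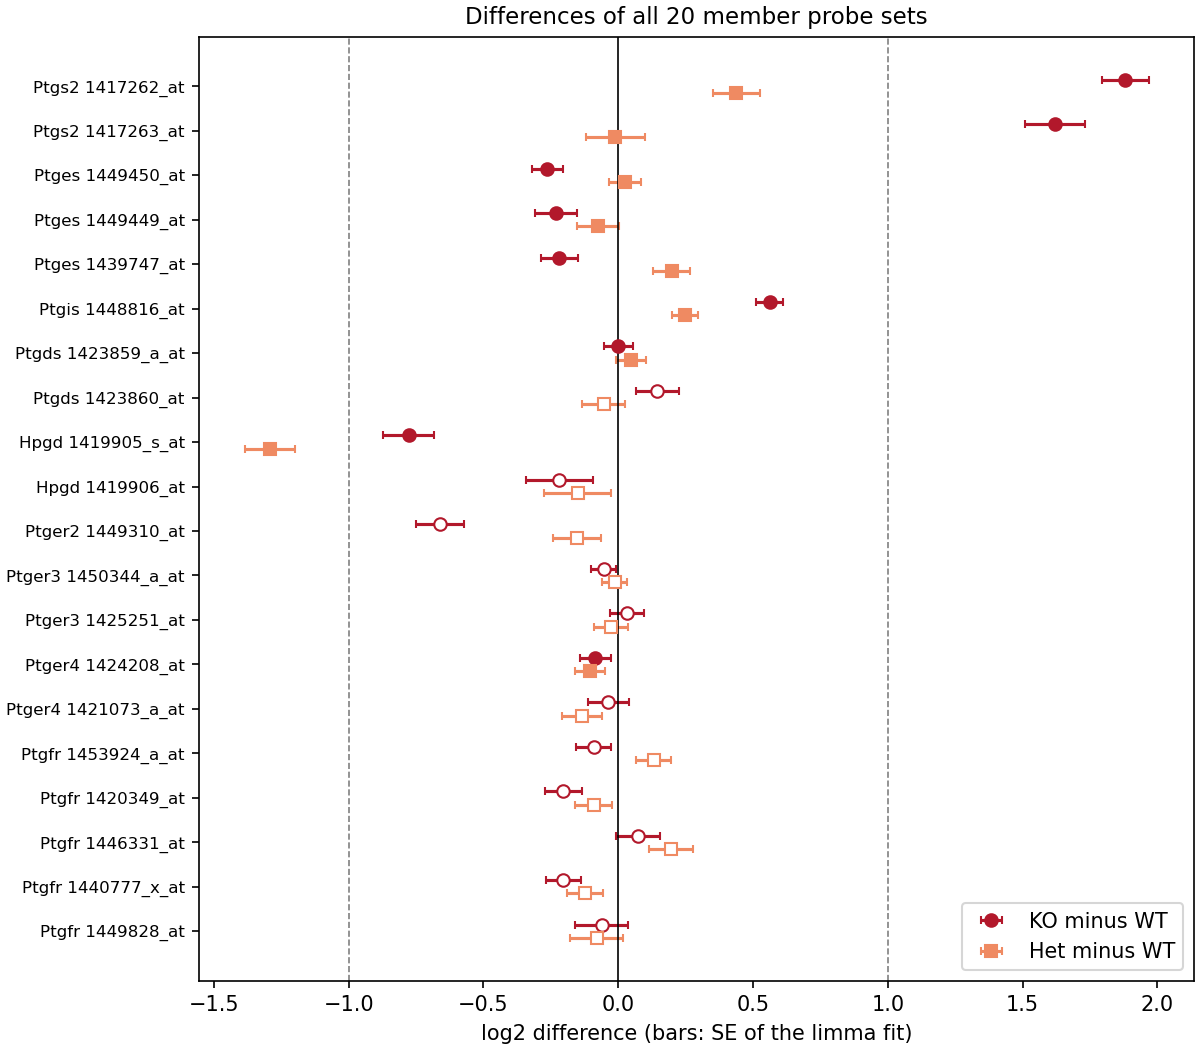
Log2 differences from WT (horizontal axis) for all 20 probe sets of the 9 genes, with KO as circles and Het as squares, bars showing the SE of the limma fit over all probe sets and dashed lines marking 2-fold. Filled symbols mark probe sets whose mean over all arrays lay above the low-value limit. The filled Hpgd probe set had KO and Het means under it. 2-fold was passed by both Ptgs2 probe sets in KO and by 1 Hpgd probe set in Het.

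Of the receptor genes of the set, Ptger2, Ptger3 and Ptgfr lay under the low-value limit, and the more abundant Ptger4 probe set lay above it. Ptger4 encodes the EP4 receptor for prostaglandin E2, which raises cAMP. Its more abundant probe set averaged 6.98 ± 0.0605 in KO and 6.96 ± 0.0845 in Het, against 7.06 ± 0.0317 in WT arrays (SD, n = 3 arrays each), with a KO minus WT difference of -0.09 ± 0.0506 (SE; limma adjusted p = 0.182). The KO arrays overlapped both other lines, and the Het arrays lay just below the WT arrays. The less abundant Ptger4 probe set, at means of 4.18 to 4.31, did not pass either.

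Ptger2 encodes the EP2 receptor, which also raises cAMP in response to prostaglandin E2. Its single probe set read 4.69, 4.61 and 4.52 in KO and 5.02, 5.24 and 5.08 in Het arrays, against 5.09, 5.29 and 5.42 in WT arrays. All KO arrays lay below the others, while Het and WT overlapped. In the fit over all probe sets the KO minus WT difference was -0.66 ± 0.0891 (SE; limma adjusted p = 0.000259) and the KO minus Het difference -0.51 (limma adjusted p = 0.00177), both short of 2-fold. In that fit 28.9% of all probe sets passed the adjusted p threshold between KO and WT, and 26.6% between KO and Het. Every Ptger2 value lay under the low-value limit, so these sizes too hold for the deposited values only.

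Ptger3, which encodes the EP3 receptor that lowers cAMP, averaged between 4.35 and 4.45 in every line on both probe sets. Its KO minus WT differences were -0.05 and 0.03, and neither passed the threshold. Ptgfr, the prostaglandin F2 alpha receptor gene, had 5 probe sets with means of 3.86 to 5.83, all under the limit. Their KO minus WT differences ran from -0.20 to 0.07, and 1 of the 5 passed the adjusted p threshold (-0.20, limma adjusted p = 0.0413), beside 28.9% of all probe sets. In KO against Het, where 26.6% of all probe sets passed, the most abundant Ptgfr probe set passed (-0.22, limma adjusted p = 0.0254) and its arrays did not overlap, with means of 5.61 in KO and 5.83 in Het. Across all 20 probe sets, 10 held at least 1 value shared exactly by several arrays, and 9 of these 10 lay under the limit.

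Other genes of the pathway were counted from lists by their place in it. The steps that free and recapture arachidonic acid had 12 measured genes, of which 0 were called in KO against WT (median log2 difference 0.09, beside -0.03 over all genes). Mgll, a monoacylglycerol lipase gene that can supply arachidonic acid, was 1.83-fold higher in KO than in WT (0.87 ± 0.0509, SE; limma adjusted p = 9.53e-08), and 2 of its other 3 probe sets gave 0.86 and 0.85 but 1 gave 0.08. Acsl4, which couples arachidonic acid to coenzyme A, was 1.62-fold higher (0.69), with 0.28 and 0.14 at its other probe sets. Pla2g4a, the cytosolic phospholipase A2 gene, is named here for its role: it averaged 11.15 in KO and 10.80 in Het, against 11.08 in WT, and did not pass between KO and WT (limma adjusted p = 0.244).

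Among 6 other prostanoid synthase genes, Hpgds fell in KO against WT and 5 were not called (median -0.53). Hpgds encodes the hematopoietic prostaglandin D synthase. It read 6.79, 6.38 and 6.46 in KO and 7.55, 7.55 and 7.57 in Het arrays, against 8.34, 8.20 and 8.44 in WT arrays, and no lines overlapped. The fall in KO was 3.44-fold (-1.78 ± 0.0935, SE; limma adjusted p = 3.97e-08), while in Het the difference of -0.77 was short of 2-fold. Tbxas1, the thromboxane synthase gene, was lower in KO by a log2 difference of -0.69 that was short of 2-fold. It is named after its values were seen. Both enzymes are known in macrophages, whose markers Lyz2, C1qa, C1qb and Csf1r fell in KO against WT with log2 differences of -1.89, -1.78, -1.86 and -1.49. Their part in these differences was not tested. In such bulk RNA, fewer cells of a type and less RNA per cell cannot be told apart.

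A list of lipoxygenase and leukotriene genes, whose products come from the same fatty acid, also held Ephx2, the soluble epoxide hydrolase gene, which acts on epoxides made by cytochrome P450 enzymes and belongs to neither group. Of its 9 measured genes, Alox5ap fell and Ephx2 rose in KO against WT, and 7 were not called (median -0.0034). No lipoxygenase or leukotriene gene of the list was called higher. Alox5ap, the gene of the 5-lipoxygenase activating protein, read 9.24, 9.17 and 9.35 in KO and 10.56, 10.66 and 10.63 in Het arrays, against 10.79, 10.86 and 10.85 in WT arrays. Its fall in KO was 2.99-fold (-1.58 ± 0.0517, SE; limma adjusted p = 9.75e-10), beside the macrophage median of -1.76. Alox5, the enzyme gene itself, is named after its values were seen and differed by 0.04. Ephx2 read 9.37, 9.18 and 9.32 in KO and 8.10, 8.10 and 8.05 in Het arrays, against 8.15, 8.18 and 8.15 in WT arrays. The KO arrays stood apart from both others, and Ephx2 rose 2.18-fold against WT (1.13 ± 0.0499, SE; limma adjusted p = 9.9e-09). Its Het minus WT difference was -0.08.

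Transport and later breakdown had 5 measured genes with 0 called in KO against WT. Slco2a1, the transporter that carries prostaglandins into cells for breakdown, was 1.56-fold higher in KO than in WT (0.64 ± 0.0548, SE; limma adjusted p = 2.34e-06), with 0.54 and 0.15 at its other probe sets. Ptgr2, a prostaglandin reductase gene, was lower by a log2 difference of -0.42 that was short of 2-fold, with -0.44, -0.44 and -0.17 at its other probe sets. Of 5 other receptor and receptor-associated genes 0 were called. Ptger1, the EP1 receptor gene, differed by -0.27 (limma adjusted p = 0.00694) and Tbxa2r, the thromboxane receptor gene, by -0.25 (limma adjusted p = 0.000873), both short of 2-fold, and the list's median was -0.17. Ptgir, the prostacyclin receptor gene, also passed the adjusted p threshold short of 2-fold (-0.17, limma adjusted p = 0.0428), beside 53.1% of all genes. Ptgdr (-0.08, limma adjusted p = 0.263) and Ptgfrn (-0.06, limma adjusted p = 0.279) did not pass it. These last 3 genes are named after their values were seen. The 8 genes of proteins that bind Ptgs2 mRNA also had 0 calls (median -0.15), with Celf2 at -0.36 and Zfp36l2 at -0.34. Not all of them were lower in KO. Zfp36 differed by 0.28 (limma adjusted p = 0.00147), short of 2-fold, Khsrp by 0.03 and Elavl1 by 0.01, all named after their values were seen. The other 3 Celf2 probe sets lay between -0.06 and -0.04, and the other Zfp36l2 probe sets gave -0.45 and -0.16.

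**Figure D3:**
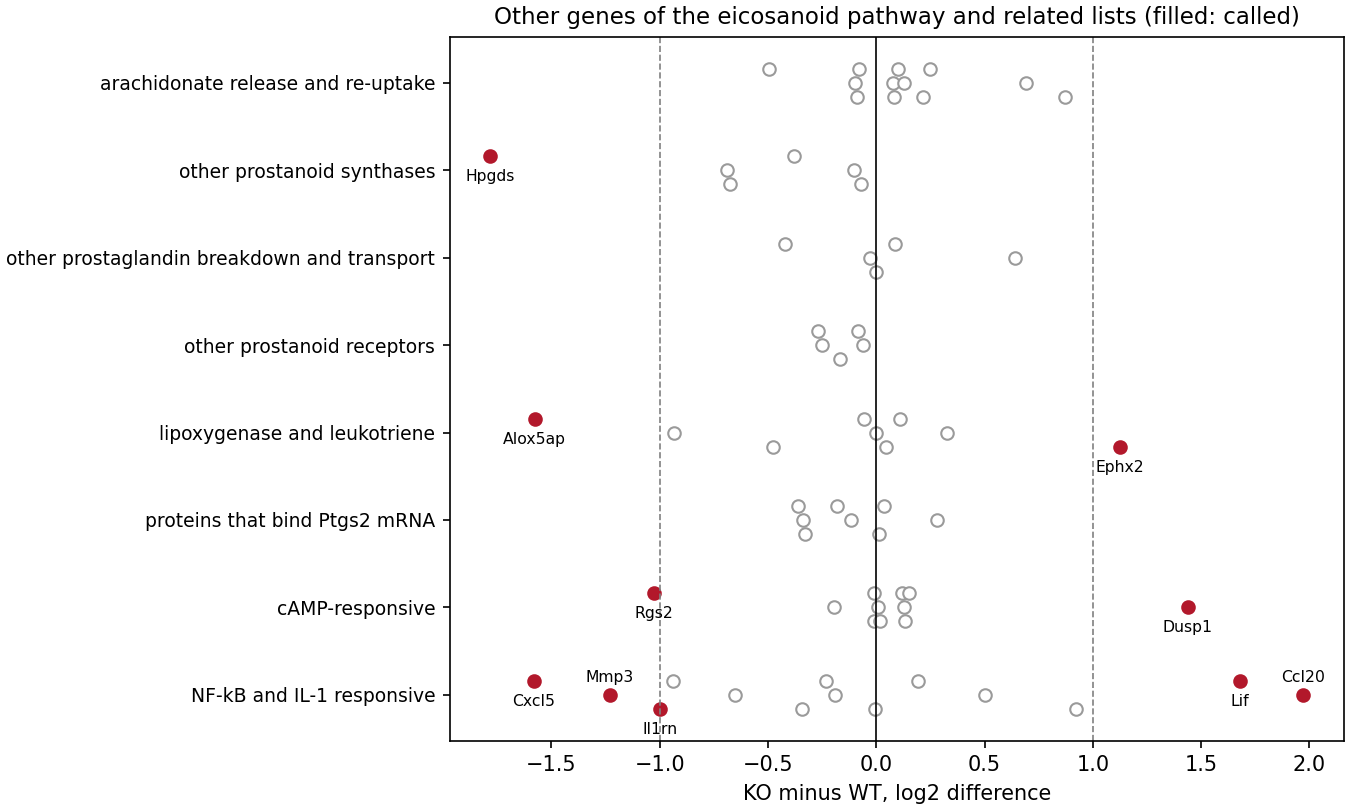
KO minus WT log2 differences (horizontal axis) of genes past the low-value limit in 8 lists; filled points with names passed the adjusted p threshold and 2-fold, open points did not, and dashed lines mark 2-fold. Calls lie in the synthase, leukotriene, cAMP-responsive and NF-kB lists, and the single higher call of the leukotriene list is the epoxide hydrolase gene Ephx2.

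Genes that EP2 and EP4 signalling can induce through cAMP moved in both directions. Of 11 measured, Dusp1 rose and Rgs2 fell in KO against WT, and 9 were not called (median 0.02). Dusp1, a MAP kinase phosphatase gene, read 10.58, 10.53 and 10.61 in KO and 9.36, 9.56 and 9.54 in Het arrays, against 9.10, 9.23 and 9.08 in WT arrays (1.44 ± 0.0592, SE; limma adjusted p = 6.04e-09). Rgs2, a regulator of G protein signalling, fell by 1.03 (-0.97, short of 2-fold, with quantile normalization), and its other 2 probe sets gave -1.27 and -1.21. The nuclear receptor genes Nr4a1, Nr4a2 and Nr4a3, named after their values were seen, differed by -0.01 to 0.13.

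Inflammatory genes that respond to NF-kB and interleukin-1, as Ptgs2 does, split in direction. Of 14 measured, 2 rose, 3 fell and 9 were not called in KO against WT (median -0.21). Ccl20, a chemokine gene, rose 3.92-fold (1.97 ± 0.0559, SE; limma adjusted p = 3.55e-10), and the cytokine gene Lif rose 3.20-fold (1.68). Cxcl5, another chemokine gene, read 6.70, 7.01 and 6.64 in KO and 5.97, 6.13 and 5.97 in Het arrays, against 8.34, 8.43 and 8.31 in WT arrays. It was lowest in Het, as Hpgd was, and fell in both, with log2 differences from WT of -1.58 in KO and -2.34 in Het. All 3 Het arrays of Cxcl5, with a mean of 6.02, lay under the low-value limit, so the size in Het holds for the deposited values only. The matrix metalloproteinase gene Mmp3 fell by 1.23 in KO against WT, with a KO mean of 6.21 under the low-value limit. Il1rn, which encodes an interleukin-1 receptor antagonist, fell by 1.00, exactly at the 2-fold limit, with -1.15 and -0.93 at its other probe sets. It was short of 2-fold with quantile normalization, with median centring, or without KO replicate 1, KO replicate 2, WT replicate 1 or WT replicate 2, at values from -0.99 to -0.98. In Het against WT, where 0.255% of all genes were called, Cxcl5 was the single call among all 8 lists. In the same comparison 0 of the 4 tested prostaglandin genes were called and 1, Ptgis, passed the adjusted p threshold, which 34.4% of all genes passed. In KO against Het, 0 of the 4 were called, beside 2% of all genes. There 2 of the 4, Ptges and Ptgis, passed the adjusted p threshold, which 52.3% of all genes passed.

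Genes with the pattern most like that of Ptgs2 and of Hpgd were found over the 9 arrays, after each gene was set to 0 at its WT mean, by the smallest root mean square difference. The comparisons of KO and of Het share the WT arrays, and likeness here is a description over 3 lines. Nearest to Ptgs2 were Ldb3, which encodes a protein of the muscle Z disc (0.132), Ccl20 (0.165), the guanylate cyclase subunit gene Gucy1b1 (0.178), the EGF receptor ligand gene Hbegf (0.18) and Aif1l (0.181). Their KO minus WT differences ran from 1.66 to 1.97 and their Het minus WT differences from 0.21 to 0.68. The more abundant Ptgs2 probe set, which the search used, had 1.88 and 0.44. The other Ptgs2 probe set had 1.62 and -0.01, so it did not share the Het difference. Nearest to Hpgd were the transcription regulator gene Tox (0.232), the lipase inhibitor gene Angptl4 (0.243), the matrix gene Sparcl1 (0.25), the transcription factor gene Hand2 (0.253) and Mab21l1 (0.256). In Het they differed from WT by -1.61 to -0.96 and in KO by -0.92 to -0.39. The Tox arrays of Het and KO overlapped, and Tox did not pass between KO and Het (0.06, limma adjusted p = 0.491). These genes were chosen for their likeness to Hpgd, so their order between the lines is a description. The search used the Hpgd probe set whose KO and Het means lay under the low-value limit. The other Hpgd probe set, with all its means under the limit, differed from WT by -0.22 in KO and -0.15 in Het, and its lines overlapped.

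**Figure D4:**
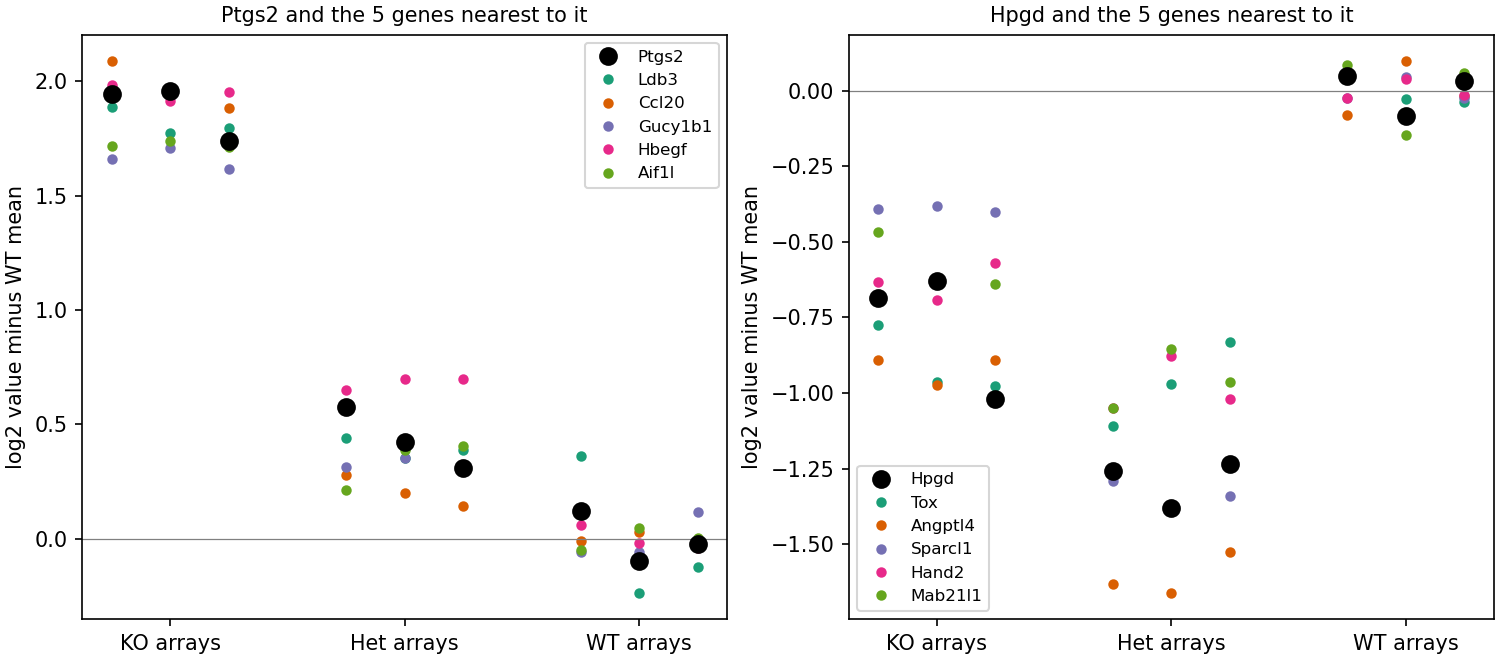
Log2 values minus the WT mean (vertical axis) on the KO, Het and WT arrays for Ptgs2 (left) and Hpgd (right) in large black points and for the 5 genes nearest to each in small coloured points, 1 point per array. The Ptgs2 group stands highest in KO, and Hpgd lies lowest in Het, where Tox overlaps its own KO arrays. Each gene is shown by its most abundant probe set.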

How the data were processed

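RNA of 9 arrays, 3 technical replicates for each of a KO, a Het and a WT line, was analysed. The authors deposited 1 table of 45101 probe sets on a log2 scale, the base being taken from the values. The submitters' processing notes name GCOS and Partek; their roles, the background correction, normalization and summarization are not given in the sources used here. No scanner files or detection calls were used. After 64 control probe sets were left out, symbols came from the platform annotation (34945 probe sets with 1 symbol, 932 with several, 9160 with none, not named).

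The lowest 40% of probe sets by overall mean were left out, and each gene was represented by its most abundant probe set (12962 genes). Lines were compared with limma 3.58.1 (lmFit, eBayes) in R 4.3.3, all 9 arrays in 1 model, Benjamini-Hochberg adjusted over all genes. Probe sets outside that fit were taken from a fit over all 45037. A gene was called at an adjusted p below 0.05 and 2-fold. The steps were tested on simulated data. Genes were named by rule: Oga, the 10 members, in each pathway list the genes called in KO against WT or otherwise the 2 with the largest difference, up to 4 most abundant markers per list, and the 5 nearest genes. Pdgfra, Lum and the others so marked were named outside it. The members and lists were chosen with earlier results of these data known, and the C/EBP motif with the Ptgs2 sequence known. Promoters came from RefSeq (GRCm38.p6). Arrays give no read depth, and their number limits the precision. Alternatives covered normalization, filters, probe set choice, fold minimum, replicate block, variance model, compared lines alone and each array left out. Plots used Python 3.11.15 and matplotlib 3.10.9.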

Additional observations from a re-analysis of the deposited data

How the results depend on the processing

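The count of called genes among Ptges, Ptgis, Ptgds and Ptger4 was 0 in all 3 comparisons under every alternative with a fold minimum. With no fold minimum it was 2 in KO against WT, 1 in Het against WT and 2 in KO against Het. Calls over all genes numbered 462 in KO against WT, 33 in Het against WT and 259 in KO against Het. In that order they were 1241, 236 and 895 with a 1.5-fold minimum and 6881, 4458 and 6782 with none. In Het against WT, 69 genes were called when every probe set was tested separately. Leaving out 1 array gave 459 to 465, 31 to 38 and 252 to 273. The Ptgs2 difference was 1.83 to 1.95 in KO against WT and 0.37 to 0.50 in Het against WT over left-out arrays. The Hpgd difference from WT lay between -0.85 and -0.66 in KO and between -1.32 and -1.25 in Het over the 6 left-out arrays under which it still passed the limit. The fall of Hpgds in KO against Het (-1.02) was short of 2-fold with quantile normalization (-0.98), median centring (-0.96), without KO replicate 2 (-0.93) or without KO replicate 3 (-0.97). The alternatives for genes of the pathway lists were added after the data were seen. With the replicate number as a block the counts were again 462, 33 and 259. Same-numbered arrays of different lines did not deviate together (r between -0.176 and 0.213, 2 of 9 pairs over 0.1), so the numbers were not taken to pair them. Low values, for which no detection calls were used, limit what can be said of Hpgd, Ptger2, Ptger3, Ptgfr and the less abundant Ptger4 probe set.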
